A study of Mus musculus with 4 samples.

Results

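The lysosomal proteases and membrane proteins described here are 9 genes, namely the cathepsins Ctss, Ctsb, Ctsd, Ctsh and Ctsl, the asparaginyl protease Lgmn, the membrane proteins Lamp1 and Lamp2, and the acid phosphatase Acp2. They were chosen by gene symbol, and every probe set annotated with one of these symbols was taken, out of 6137 genes named on the arrays. The RNA came from CD8 T cells of the B6.2.16 strain, a transgenic line with 1 T cell receptor that recognises the HY antigen of male cells. Every donor and host was a RAG1-deficient female, and animals without RAG1, a recombinase, make no T or B cells beyond those the transgene allows. The naive group was taken directly from lymph nodes and stated to be more than 85% pure. The memory group descended from splenocytes kept for 4 days with HY peptide and then moved into RAG1-deficient female hosts. The labels do not say whether the hosts carried the transgene, so whether the memory group could include CD8 T cells of the hosts is not known here. Its cells were collected from spleens and lymph nodes after 200 days with magnetic beads and stated to be more than 80% pure. Neither the age of the mice nor the number pooled is stated in the labels. RNA of each population was hybridised to the A and the B chip of an Affymetrix mouse set, 4 arrays in all. Each chip thus holds 1 array of memory and 1 of naive cells, with no replicates. There is no spread, standard error or p-value for any value, and each difference describes a single pair of arrays. Tissue of origin, culture, transfer and sorting changed together with the group and cannot be told apart.

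Lysosomes are acidic compartments in which proteins, lipids and sugars are broken down. Cathepsins are their proteases, and legumain (Lgmn), which cuts after asparagine, also trims several cathepsin precursors. Heavily glycosylated membrane proteins such as Lamp1 and Lamp2 line the compartment. In macrophages and dendritic cells the proteases digest engulfed material and prepare antigen for presentation, and in cytotoxic T cells the granules that hold granzymes are modified lysosomes that carry Lamp1 in their membrane.

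The naive array of the A chip could not be read by gene. Its Spearman correlation with the memory array was 0.10 across 6529 A-chip probe sets, against 0.85 across 6540 probe sets on the B chip. For the 398 genes that both chips name, the naive A values correlated at 0.07 with the naive B values, whereas the memory A values correlated at 0.42 with them. These correlations are across probe sets or genes, which are not independent replicates. Groups are therefore compared on the B chip only, and the A chip gives a level in memory cells only.

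The A chip held 5 and the B chip 7 probe sets of the 9 genes, 12 in all. Ctsb and Lamp1 were on both chips, Ctss, Ctsh and Lamp2 on the A chip only, and Ctsd, Ctsl, Lgmn and Acp2 on the B chip only. Hence Ctss, Ctsh and Lamp2 have no comparison between memory and naive cells. On the B chip, signals under 423 on the scaled intensity axis were treated as noise, a floor set from the sizes of the negative values. A probe set is called measured here where at least 1 of its arrays exceeded that floor. Of the 7 member probe sets 4 were measured, 3 of them above the floor on both arrays (Ctsd, Lamp1, Lgmn), and 3 lay under it on both.

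The genes read above the floor on both arrays, Lamp1, Ctsd and Lgmn, are shown with the 250 bases before an annotated start because they are the ones for which a ratio of memory to naive could be formed from measured values. The sequences are RefSeq promoters of assembly GRCm38.p6, written 5′ to 3′ on the strand of the gene, and capitals mark CACGTG, the core of the coordinated lysosomal expression and regulation (CLEAR) element that the transcription factor TFEB binds. CACGTG reads the same on both strands.
Lamp1, chr8:13158911-13159160, plus strand: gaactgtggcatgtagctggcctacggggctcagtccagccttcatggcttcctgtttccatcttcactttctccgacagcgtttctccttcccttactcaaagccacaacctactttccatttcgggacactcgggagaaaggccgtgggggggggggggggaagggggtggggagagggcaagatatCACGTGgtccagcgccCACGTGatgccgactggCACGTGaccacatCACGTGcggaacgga
Ctsd, chr7:142387828-142388077, minus strand: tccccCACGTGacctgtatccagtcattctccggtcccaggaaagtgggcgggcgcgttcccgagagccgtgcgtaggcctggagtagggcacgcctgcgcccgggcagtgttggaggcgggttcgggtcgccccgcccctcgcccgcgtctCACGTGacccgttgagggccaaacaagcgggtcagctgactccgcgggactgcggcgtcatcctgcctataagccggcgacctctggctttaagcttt
Lgmn, chr12:102439093-102439342, minus strand: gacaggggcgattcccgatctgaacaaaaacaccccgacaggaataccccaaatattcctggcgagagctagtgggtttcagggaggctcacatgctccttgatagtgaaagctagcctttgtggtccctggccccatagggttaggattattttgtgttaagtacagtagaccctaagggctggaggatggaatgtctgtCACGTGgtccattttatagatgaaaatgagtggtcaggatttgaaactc

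The Lamp1 stretch held 4 copies, which began 61, 45, 28 and 15 bases before the start and did not overlap. The Ctsd stretch held 2 copies, beginning 245 and 98 bases before the start. Lgmn has 2 listed starts, and the one shown was picked because it had a copy, beginning 49 bases before it, where the other had none. Of the 7 member genes with a listed promoter, 4 had CACGTG in a promoter of 300 bases (250 before and 50 after the start), the fourth being Ctsl. The letters were in 8.09% of 27025 genes in the promoter table and in 23 of 107 other lysosomal genes, or 21.5%. The windows of Ctss, Lamp2 and Acp2 did not hold these letters. A match is a description of the sequence and was not tied to any value on the arrays.

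Among the 4 members measured above the floor, legumain (Lgmn) was the only one whose arrays differed by at least 2-fold. Its probe set read 1148 in memory cells and 463 in naive cells, so it was 2.48-fold higher in memory, a log2 ratio of 1.31. The naive value lay just above the floor, at 1.10 times it, and the memory value at 2.72 times. With the floor doubled the log2 ratio became 0.44 and the call was lost. Of the 1056 probe sets measured on this chip, 2.84% had a higher ratio than Lgmn.

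Lamp1, the glycoprotein that covers much of the inner lysosomal surface, read 2432 in memory cells and 1366 in naive cells. It was 1.78-fold higher in memory, a log2 ratio of 0.83, and did not reach 2-fold. Both values were well clear of the floor, at 5.75 and 3.23 times it, so the floor did not set this ratio. Its probe set belongs to the sequence-family class of Affymetrix, whose probes match several related genes.

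Cathepsin D (Ctsd), the aspartic protease of lysosomes, differed least of the 3 genes above the floor on both arrays. It read 2838 in memory cells and 2198 in naive cells, 1.29-fold higher in memory, with a log2 ratio of 0.37. Its ratio moved with the scaling of the arrays, to 0.52 with scaling by the median ratio, 0.67 with intensity-dependent normalization and 0.78 with quantile normalization. It stayed inside 2-fold with each of them.

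The lysosomal acid phosphatase Acp2, which removes phosphate groups inside the lysosome, read 295 in memory cells, under the floor, and 451 in naive cells, just above it. Its log2 ratio of -0.09 is only a bound, and a larger fall was not detectable. Cathepsin L, a cysteine protease that cuts the class II invariant chain in thymic epithelium, had 2 probe sets on the B chip. They read 295 and 192 in memory cells and 148 and 64.5 in naive cells, all under the floor. The B-chip probe set of cathepsin B, a cysteine protease that can also clip dipeptides from the end of proteins, read 229 and 102 and was under the floor on both arrays as well. For Ctsl and Ctsb a difference between the groups was not detectable on this chip at this floor, and no fold is given.

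**Figure D1:**
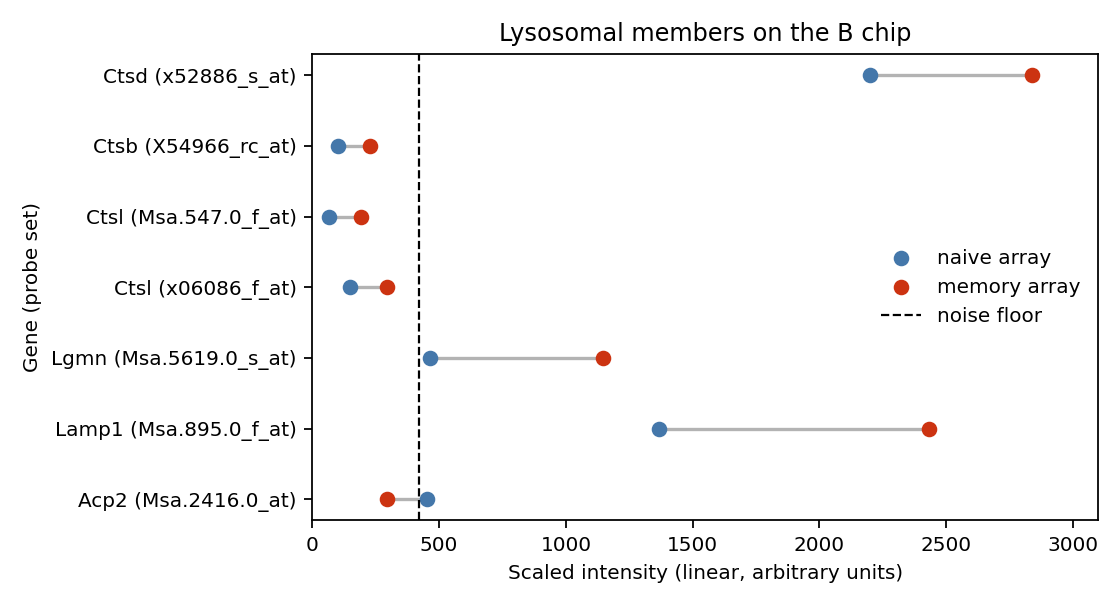
Scaled intensity (horizontal axis, linear, arbitrary units) of each member probe set on the B chip, 1 memory (red) and 1 naive (blue) array, with the noise floor of 423 dashed. Only Ctsd, Lamp1 and Lgmn lie to the right of the floor on both arrays, each with the memory point to the right of the naive point, and Ctsl and Ctsb lie wholly to its left.

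By probe set, 1 of the 4 measured was at least 2-fold higher in memory, against 6.34% of all measured probe sets, and 0 were at least 2-fold lower, against 10.7%. By gene, with each gene read by its brightest probe set, 1 of 4 measured members was higher and 0 lower, against 8.87% and 8.66% of the 462 genes measured on the chip. The ratio was above 0 in 3 of the 4 members, against 39.6% of the measured genes. The median log2 ratio was 0.60 over the 4 members and -0.12 over the 462 genes. These counts rest on 4 genes, 1 of which has only a bound. Besides Lgmn, 1 further member, Lamp1, passed a 1.5-fold threshold, and none passed 3-fold. Of the 462 genes 13.9% were higher and 15.4% lower at 1.5-fold. At 3-fold 2.6% were higher and 2.6% lower.

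The class of the probe sets bears on every one of these values. All 5 A-chip probe sets and 5 of the 7 B-chip ones carry a class letter in their names, which Affymetrix gave to probe sets with probes shared between similar sequences. Lgmn and Ctsd are read by probe sets of the s class. Among the 2 members' probe sets without such a letter, Acp2 and the B-chip Ctsb, only Acp2 was measured, so with those alone no member was higher and the median was its -0.09.

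On the memory array of the A chip 4 of 5 members were above that array's noise limit of 184, against 29.5% of the 4775 genes named on the chip. The intensities here are as deposited, and they are set against the noise limit, not against one another. Cathepsin S, a cysteine protease that stays active at neutral pH and cuts the class II invariant chain in antigen-presenting cells, read 2409, or 13.1 times the limit. Cathepsin B read 1939, or 10.5 times. Cathepsin H, a cysteine protease that acts mainly as an aminopeptidase, read 524, or 2.85 times. Lamp1 read 1581, or 8.59 times the limit, and Lamp2, a Lamp1 relative needed for fusion of autophagic vesicles with lysosomes, read 137, under the limit. With the limit doubled the same count of 4 members stood above it, against 15.0% of all named genes.

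**Figure D2:**
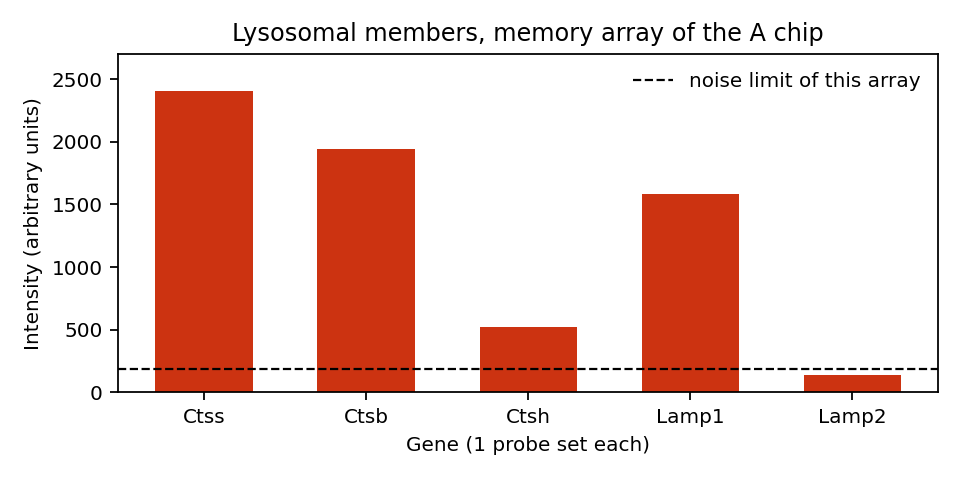
Deposited intensity (vertical axis, linear, arbitrary units) of the 5 member probe sets on the memory array of the A chip, 1 bar per gene, with the array's noise limit of 184 dashed. Ctss, Ctsb, Ctsh and Lamp1 stand above the limit and Lamp2, at 137, below it.

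The members on both chips did not behave alike. Lamp1 was above the noise level in memory cells on each chip. Ctsb was at 10.5 times the limit on the memory A array, by a sequence-family probe set, and at 0.54 times the floor on the memory B array, by a probe set without a class letter. The 2 Ctsb readings therefore differ. The name of the B-chip probe set carries the letters rc, and whether it reads the Ctsb transcript was not checked. Its low value thus does not say whether that transcript was present, and no ratio was formed between chips.

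Other lysosomal genes, taken from 8 lists of peptidases, sugar-cleaving enzymes and sulfatases, lipases, nucleases and phosphatases, activator proteins, membrane proteins, proton pump subunits, protease inhibitors, and sorting and transcription factors, had few readings on the B chip. Of 25 with a probe set 9 were measured. Of these, 3 were at least 2-fold higher in memory, against 8.87% of all measured genes. None was lower, against 8.66%, and 6 were neither. Their median log2 ratio was -0.04, against -0.12 over all measured genes. It turned to 0.11, 0.44 and 0.70 with median-ratio, quantile and intensity-dependent scaling. The median of all measured genes was then -0.00041, -0.022 and -0.031.

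The 3 higher genes were Ctsa, Grn and Ctla2a, the last from the list of protease inhibitors, which need not be lysosomal proteins themselves. Ctsa, the carboxypeptidase cathepsin A that also protects other lysosomal enzymes, read 1050 in memory cells against 222 in naive cells, the latter under the floor, so it was at least 2.48-fold higher. Grn, which encodes progranulin, the precursor of granulin peptides that reach the lysosome, read 2077 against 1024 and was 2.03-fold higher. Ctla2a, an inhibitor of cathepsin L-like proteases that resembles their propeptide and was first found in activated T cells, read 2706 against 1346 and was 2.01-fold higher. Grn and Ctla2a sat just past the threshold and passed it under all 4 other scalings and with the floor halved or doubled. The call of Ctsa was lost with the floor doubled, at a log2 ratio of 0.31. Ctsa and Grn were read by sequence-family probe sets, and without that class only Ctla2a remained of the 3.

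The remaining measured lysosomal genes lay within 2-fold. Rab7, the small GTPase that directs late endosomes to lysosomes, read 1918 against 960, a log2 ratio of 0.998 that stood at 1.02 without scaling, 1.15 after median-ratio and 1.01 after intensity-dependent scaling. Psap, the precursor of the saposins that help lysosomal lipid breakdown, read 3521 against 3675, and its log2 ratio of -0.06 turned to 0.087, 0.82 and 0.70 under median-ratio, quantile and intensity-dependent scaling. The proton pump subunit Atp6v1b2 had a log2 ratio of -0.27, and the mannose 6-phosphate receptor M6pr, which carries new hydrolases to the lysosome, one of -0.28. The adaptor subunit Ap1b1 read 315 against 476, the memory value under the floor, so its -0.17 is a bound. The ratio of Smpdl3a, a phosphodiesterase, was -0.04 on the log2 scale and turned to 0.11 under median-ratio and 0.066 under quantile scaling. None of the 4 glycosidases and sulfatases on the B chip was measured.

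**Figure D3:**
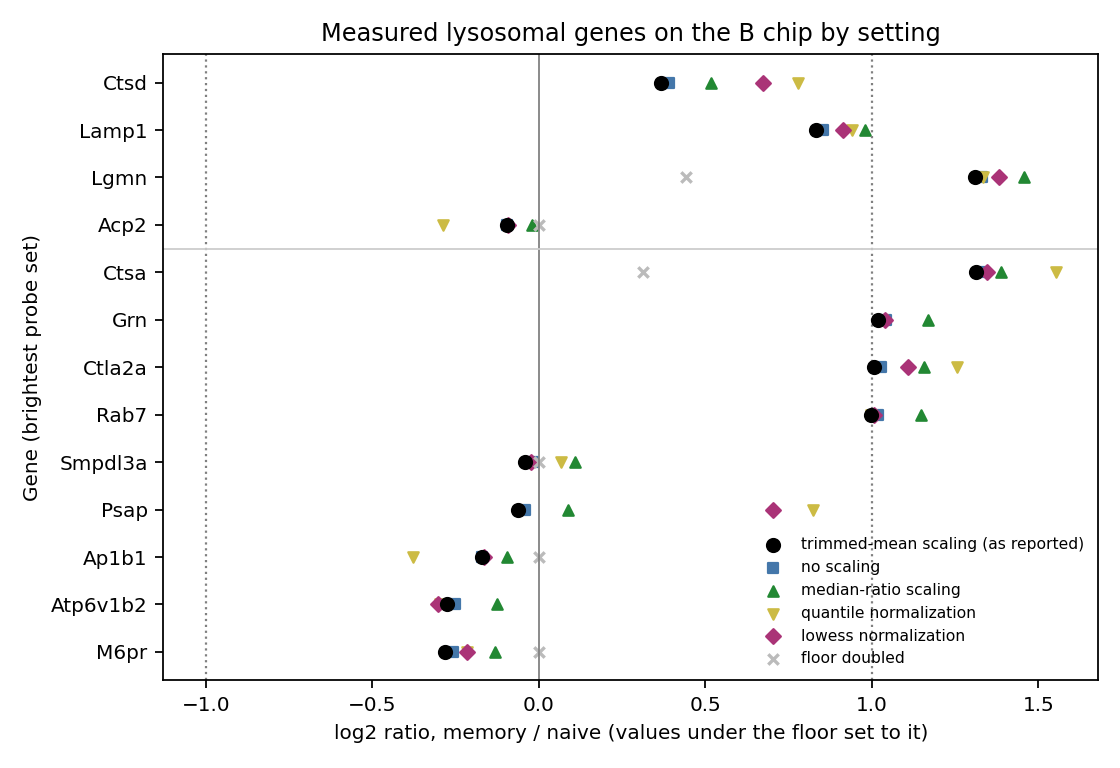
Log2 ratio of memory to naive (horizontal axis, values under the floor set to it) for the 4 measured members (above the grey line) and the 9 other measured lysosomal genes on the B chip, as reported (black) and under 4 other scalings and a doubled floor. Dotted lines mark 2-fold, and Lgmn and Ctsa fall inside them only with the doubled floor, while Psap moves from -0.06 to 0.82.

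In memory cells on the A chip 38 of 59 other lysosomal genes were above the noise limit, or 64.4%, against 29.5% of all named genes. All 13 lysosomal membrane proteins with a probe set were above it, among them Laptm5 (2148), a lysosomal protein of blood cells, Sidt2 (948) and the macrophage-rich Cd68 (598), but several were only just so, with Slc11a2 at 185, Cd1d1 at 199 and Cd63 at 210. With the limit doubled to 368, 7 of the 13 stood above it. The activator proteins Psap (1954), Grn (998) and Gm2a (606) were all above it. Of 4 other peptidases, Ctsc (1163), the cathepsin that activates granzymes, and Ctsa (510) were above it. Of 11 glycosidases and sulfatases 4 were, including Hexa (542), Man2b1 (389) and Gaa (353).

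Of 8 proton pump subunits 5 were above the limit, including Atp6v0b (954), Atp6ap1 (635) and Atp6v0e (477). Pld3 (822) and Acp5 (640) were above it among 4 lipases, nucleases and phosphatases. Both protease inhibitors read there were above it, Cst3 (1085), the secreted cystatin C, and Cstb (188), which inhibits cathepsins in the cytosol, the latter barely. Of 14 sorting and transcription genes 7 were, including Vamp8 (1294), Ap3d1 (1076) and Ap1b1 (928), while Tfeb, the regulator of lysosomal genes, read -58. With the limit doubled 25 of the 59 were above it, against 15.0% of all named genes.

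**Figure D4:**
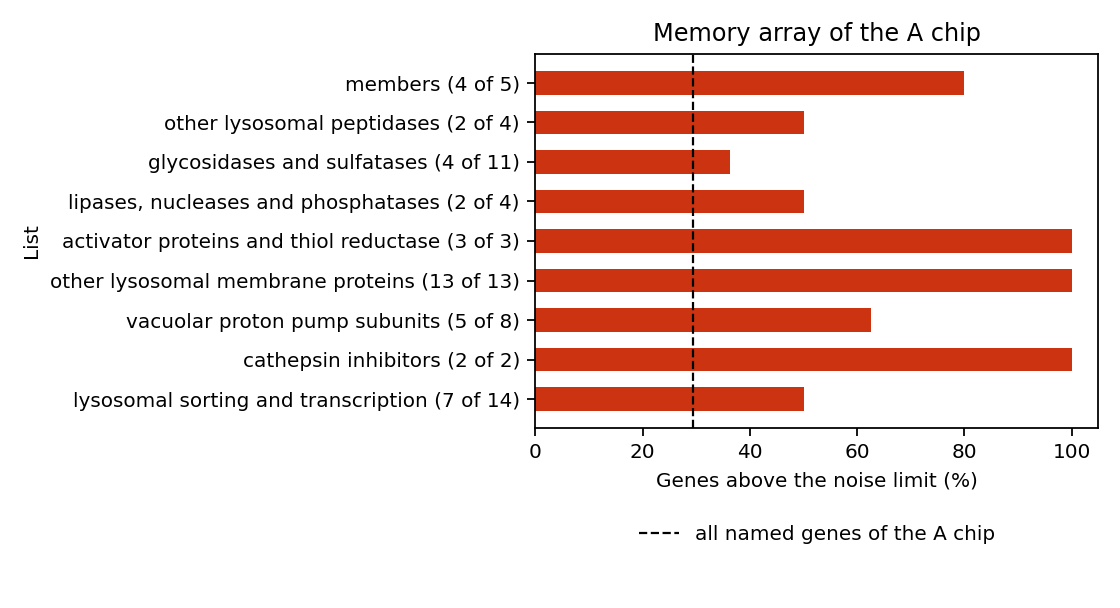
Share of genes above the noise limit of 184 (horizontal axis, percent) on the memory array of the A chip, 1 bar per lysosomal list with its counts, and the share of all named A-chip genes, 29.5%, dashed. Every list stands to the right of that line, the glycosidases and sulfatases least, at 36.4%.

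Markers of other cells were present in both preparations, and part of the macrophage list was higher in memory. All 10 macrophage and monocyte markers with a B-chip probe set were measured. Of these, 5 were at least 2-fold higher in memory, against 8.87% of all measured genes, 0 were lower and 5 lay within 2-fold, with ratios from 1.05-fold (Vcam1) to 1.77-fold (C1qa). The list had a median log2 ratio of 0.98, and its summed intensity was 27250 in memory cells and 15946 in naive cells. None of the 10 was under the floor in memory cells, and 1, Apoe, was under it in naive cells. On the memory A array 7 of 10 such markers were above the limit, against 29.5% of all named genes. Among them were Hmox1 (2228), Lyz2 (2007) and Spic (1800), and Msr1 (187) was barely above it. Fcgr1, Marco and Mpeg1 were under it. The chips differed for Mpeg1, which read 96 there but 3665 in memory cells on the B chip. On the B chip it was 3.84-fold higher in memory. The 5 measured T cell markers summed to 4780 in memory cells and 8577 in naive cells, with 1 lower (Thy1, 2848 against 6184) and 4 not called. Most of that gap was Thy1, and the other 4 summed to 1933 and 2393, values under the floor included. Cd3g (254 against 502) and Zap70 (221 against 424) were under the floor in memory cells, so their ratios are bounds. The coreceptor chain Cd8a, which CD8 T cells carry, read 498 in memory and 352 in naive cells. The naive value was under the floor, so its ratio is a bound too. The receptor chain Cd3d read 959 and 1115. The dendritic cell list, mostly class II genes, had 1 of 4 measured higher and 1 lower, and summed to 10816 and 16282. Without Cd74 (3068 against 9507) the other 3 summed to 7748 and 6775, so the order of the sums turned. Granulocyte markers summed to 7679 and 8620 over 3 measured genes, all within 2-fold with a median log2 ratio of 0.18. Without Camp (3180 against 5061) the sums were 4498 and 3560, and their order turned. Of 4 B cell markers on the B chip 0 were measured, and the 2 NK cell markers measured there were both under the floor in memory cells. On the memory A array 1 of 4 B cell markers (Ms4a1, 301) was above the limit. The 2 genes of the NK cell list differed there, with Fcer1g (2267) above the limit and Klrb1c (18) under it. Also above the limit were 3 of 5 granulocyte, 3 of 5 dendritic cell, 2 of 2 T cell and 1 of 2 erythroid markers. The share over all named genes was 29.5%, and each of these lists has few genes there. The 2 T cell markers were Cd3e (317) and Cd247 (240). Of 4 erythroid genes on the B chip 1 was higher in memory, Alas2 (1943.5 against 183, the latter under the floor). Another 2 were lower, Hba-a1 (2007 against 11296) and Hbb-b2 (2290 against 6105). Over all measured genes 8.87% were higher and 8.66% lower. The erythroid sums were 6995 in memory cells and 18198 in naive cells. The part of any of these cells in the values of Lgmn, Lamp1, Ctsd and the A-chip members was not tested. In such mixed RNA, more cells of a type and more RNA per cell cannot be told apart.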

How the data were processed

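Per the labels, RNA isolated with Trizol was turned into cRNA and hybridised following Affymetrix protocols. The deposited values are intensity values, 1 whole number per probe set with negative numbers among them. Their 2% trimmed mean was close to 150 on every array (150.2 to 150.4), as if scaled beforehand. No label or file header names the software that computed them or a genome build. Every column was matched to a sample by its accession, and the group came from the sample's title.

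Gene symbols are those of the platform annotation, and a lookup of their Entrez numbers in RefSeq (GRCm38.p6) changed 0 of them. On the A chip 5560 of 6584 probe sets had 1 symbol, and on the B chip 2001 of 6595. Control probe sets (55 per chip) were left out. The B arrays were brought to 1 common trimmed mean (factors 0.993 and 1.01). The floor was the 95th percentile of the absolute negative values on the noisier array. Values under it were set to it, and log2 ratios of memory over naive were formed. A probe set was called when its brighter array reached 2 times the floor and the ratio reached 2-fold. On the A chip the memory array's own limit was used. The number of arrays, 1 per group and chip, limits the precision, and no test was run.

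All members are named. Other lysosomal genes are named when past 2-fold, and up to 3 more per list by brightness. Rab7, Psap and other measured genes on the B chip, Tfeb, Slc11a2, Cd1d1, Cd63 and Cstb were named after their values were seen. The members, gene lists and thresholds were chosen with earlier results of these data known. Alternatives were other scalings (none, median ratio, quantile, lowess with a span of 0.4), other floors, thresholds and choices of probe sets. The removal of sequence-family probe sets, marker sums without 1 gene and list counts at the doubled A limit were added after the data were seen. The procedure was tested on simulated data, with changes planted only in probe sets far above the noise level. That test therefore does not bear on calls with a value near the floor, such as that of Lgmn. Python 3.11.15, pandas 2.3.3 and statsmodels 0.14.6 were used.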

Additional observations from a re-analysis of the deposited data

How the results depend on the processing

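No paired analysis was possible because each chip has 1 array per group. For the same reason leaving out arrays was not possible, and no spread bounds any of these values. The count of 1 member gene higher on the B chip, which was also 1 member probe set, stayed at 1 under all 4 other scalings, with the floor halved and without sequence-family probe sets. It was 0 with the floor doubled, 0 with the 3-fold threshold and 2 with the 1.5-fold threshold. Over all measured genes the shares higher were 6.02%, 2.6% and 13.9% with these settings. The count of members lower was 0 under every alternative run. With the floor halved 6 member genes were measured instead of 4, and their median log2 ratio was 0.42. Acp2 then stood at -0.61. Ctsb stood at 0.12 and the brighter Ctsl probe set at 0.48, both bounds because the naive values were still under that floor.

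With only probe sets without a class letter, 1 member was measured on the B chip and 0 were higher, and the members' median turned to -0.094. In that setting 1 other lysosomal gene was measured and 0 were higher, and 5 other lysosomal genes were above the A-chip limit. Few such probe sets read these genes. No member has such a probe set on the A chip, so its count of 0 above the limit was fixed in advance and says nothing of level. The 3 other lysosomal genes higher became 0 with the 3-fold threshold, against 2.6% of all measured genes, and 1 without sequence-family probe sets, against 9.25%. Their median of -0.04 turned to 0.11 under median-ratio, 0.44 under quantile and 0.70 under lowess scaling, 0.23 with the floor halved (14 measured), 0.66 with the floor doubled and 0.48 with probe sets averaged per gene. With the A-chip limit doubled 25 of them stood above it, not 38. Psap turned to 0.087, 0.82 and 0.70 with median-ratio, quantile and lowess scaling, and Smpdl3a to 0.11 and 0.066 with the first pair. The cause was not tested for any of these scalings.

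Scaling also moved the share of higher among all genes called on the B chip, from 50.6% to 63.0% (median-ratio), 67.5% (quantile) and 68.2% (lowess), and the median of the measured genes from -0.12 to -0.00041 with median-ratio scaling, a shift that raises every ratio above. Signal over background limits Acp2, Ctsl and Ctsb on the B chip and Lamp2 on the A chip, which lie at or under the noise limits.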
